A study of Mus musculus with 20 samples.

Results

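The effect of deleting *Tet2* and *Tet3* in regulatory T (Treg) cells on the transcriptome of CD4+Foxp3- T cells was compared between 2 tissue sources, mesenteric lymph nodes (mLN) and a pool of spleen with peripheral lymph nodes (pLN). All RNA-seq libraries of CD4+Foxp3- T cells were taken, 10 of the 20 libraries in the series, with 2 WT and 2 DKO libraries from spleen and pLN and 3 WT and 3 DKO libraries from mLN; the other 10 libraries were from CD4+Foxp3+ Treg cells. The counts of the 2 sources were deposited as separate tables, so the DKO over WT change was computed within each table and genes were then paired by symbol, which gave 15183 genes tested in both. WT mice carried *Foxp3*Cre, and DKO mice, *Tet2/3* fl/fl *Foxp3*Cre, carried that allele together with floxed alleles of both genes. All were C57BL/6 and 14 weeks old. In this allele a YFP-Cre fusion is expressed from the *Foxp3* locus, so the floxed genes are deleted in cells that express Foxp3, whereas the cells studied here were sorted as CD4+YFP-. The sorted DKO population could therefore hold bystander cells with intact *Tet2* and *Tet3* and cells that had once expressed Foxp3 and lost it, and the libraries do not separate them. The sources used here do not state whether the spleen and mLN libraries came from the same mice.

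TET enzymes oxidize 5-methylcytosine in DNA, which leads to loss of methylation, and in Treg cells they keep enhancers of *Foxp3* demethylated so that Foxp3 expression is stable. Treg cells restrain the activation of conventional CD4+ T cells. Conventional cells that escape this control divide and take on effector programs, among them the T follicular helper (Tfh) program that helps B cells, the interleukin-17 (Th17) program and the interferon-γ (Th1) program. Activated cells also raise costimulatory and co-inhibitory receptors and lower homing receptors of naive cells such as *Ccr7*.

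The 4 spleen and pLN libraries held 13651618 to 14258836 counted reads and the 6 mLN libraries held 10379495 to 15449158. *Foxp3* was low in every Foxp3- library, at 0.211 to 2.75 CPM (reads of a gene scaled to the library total of its own table), against 153 to 419 CPM in the Treg libraries. *Tet3* was 50.9 and 58.1 CPM in WT against 37.7 and 45.9 in DKO spleen and pLN, and neither *Tet2* nor *Tet3* passed the test in either tissue. These counts cover the whole gene and do not check the deletion. By qPCR and by reads on the deleted exons, the study found both transcripts strongly lower in CD4+YFP- cells of DKO mice. It takes this as a sign of cells that had lost Foxp3, although it elsewhere describes the deletion as specific to CD4+YFP+ cells. DKO libraries of one tissue were far from alike. DKO library 1 of spleen and pLN and DKO library 2 of mLN stood apart, with 733 and 713 genes (of the 8066 at 10 CPM or more in both tissues) over 2-fold from the WT mean, against 57 in DKO library 2 of spleen and pLN and 75 and 229 in DKO libraries 1 and 3 of mLN. The study notes that its DKO littermates differed in spleen size; the labels do not tie this to a library. Where a call was lost without these 2 libraries, or a called fold change moved by more than 1.5-fold, the value without them is given for genes described with their CPM; a lost call also reflects the smaller number of libraries.

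Transcripts of other cell types also moved with genotype. Summed over 5 plasma cell markers, CPM were 4.50 to 4.94 in WT and 28.6 to 137 in DKO spleen and pLN, and 3.98 to 10.7 in WT and 13.5 to 547 in DKO mLN. Summed over 7 NK cell markers they were 65.1 to 106 against 119 to 223 in spleen and pLN, and 9.87 to 15.3 against 36.1 to 139 in mLN. In mLN these sums came mostly from *Klrb1c*. The 13 B cell markers summed to 29.99 to 32.4 against 42.5 to 56.8 in spleen and pLN and to 23.0 to 26.6 against 27.6 to 31.7 in mLN, with *Ms4a1*, which encodes CD20, under 1 CPM in every library. The 19 myeloid markers summed to 439 to 449 against 529 to 750 and to 390 to 429 against 417 to 574, mostly from *Ctss* and *Cybb*, with *Csf1r* and *C1qa* under 1 CPM in every library. The part of these cells in the results below was not tested. In such bulk libraries, more cells of a type and more RNA per cell cannot be told apart.

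Most of the called genes were higher in DKO in both tissues, and none was called in opposite directions. A gene was called where edgeR's quasi-likelihood test gave an adjusted p (Benjamini-Hochberg over all genes of the table) of 0.05 or less and a change of at least 1.5-fold. Of the 15183 paired genes, 126 (0.830%) were called up and 8 (0.0527%) down in spleen and pLN, and 517 (3.41%) were called up and 50 (0.329%) down in mLN. In all, 96 genes were up in both tissues and 2 were down in both (*Padi4* among them). The 96 shared genes were 76.2% of those up in spleen and pLN and 18.6% of those up in mLN.

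Most calls of one tissue had the same sign in the other. Each of the 126 genes called up in spleen and pLN had a positive log2 fold change in mLN, with a median of 3.72 in spleen and pLN and 3.76 in mLN (3.62 and 3.61 with genes at 0 counts in every WT library set to their lower bound). Of the 30 that were not called in mLN, 21 had an unadjusted p under 0.05 there in the same direction. Of the 517 genes called up in mLN, 512 (99.0%) were also positive in spleen and pLN, where their median log2 fold change was 1.80 against 2.40 in mLN. Over all paired genes both medians were 0, and 9917 genes had the same sign in both tissues against 4328 with opposite signs. The tissues differ in their number of libraries, so the counts of calls are not measures of the size of the effect.

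All DKO libraries lay above all WT libraries for 3357 genes (22.1%) in spleen and pLN and for 1821 (12%) in mLN, and 1091 genes (7.19%) did so in both tissues. All DKO libraries lay below all WT libraries for 3399 genes (22.4%) in spleen and pLN and 1561 (10.3%) in mLN, and 758 (4.99%) did so in both. Of the 517 genes called up in mLN, 419 (81.0%) were above every WT library in spleen and pLN, and of the 126 called up in spleen and pLN, 109 (86.5%) were above every WT library in mLN. The 8 genes called down in spleen and pLN were carried over less evenly, with 6 negative in mLN and a median of -2.85 in spleen and pLN against -0.56 in mLN. Of the 50 genes called down in mLN, 43 (86%) were negative in spleen and pLN, with medians of -1.41 and -0.77.

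**Figure D1:**
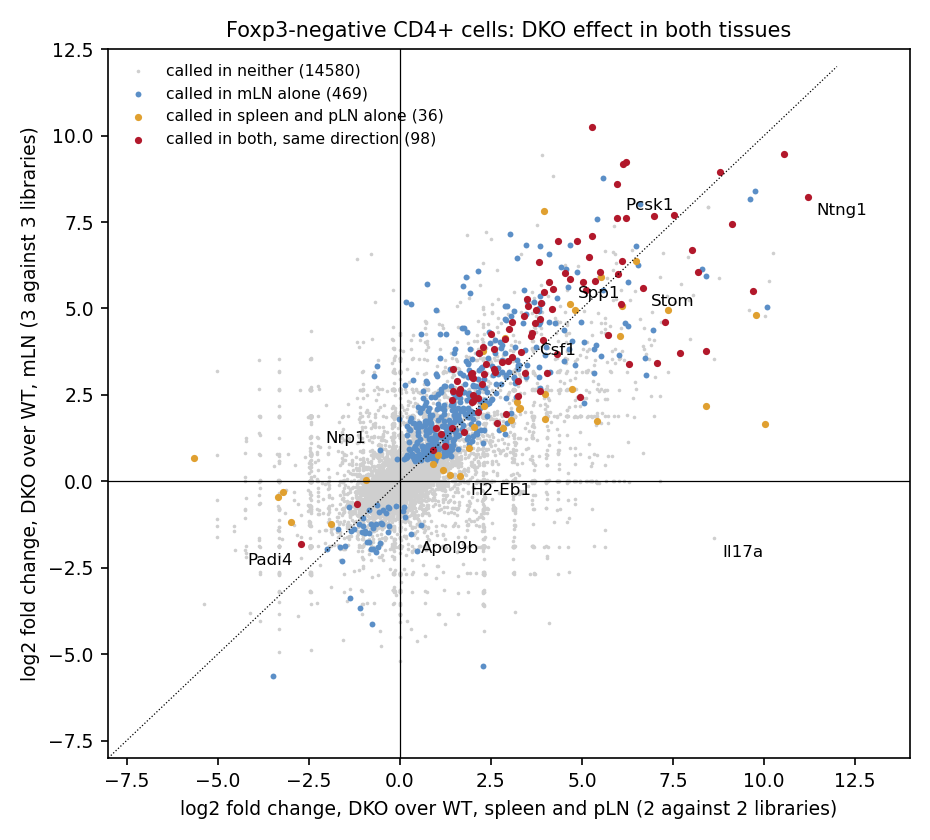
Log2 fold change of DKO over WT in CD4+Foxp3- T cells of spleen and pLN (x axis, 2 against 2 libraries) and mLN (y axis, 3 against 3 libraries), one point for each of the 15183 paired genes, colored by where the gene was called, with the dotted line marking equal changes. The genes called in both lie in the upper right quadrant, except the 2 called down in both, *Padi4* among them, in the lower left; fitted values of genes with no reads in WT, such as *Il17a* in spleen and pLN, are not bounds.

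Among the 8066 genes with at least 10 CPM in the higher group of each tissue, the log2 fold changes correlated across genes (Pearson r = 0.84, Spearman rho = 0.61), and 70.2% had the same sign. Genes are not independent replicates, and no p is attached. Larger changes agreed more often. Of 436 such genes up at least 1.5-fold in spleen and pLN, 427 (97.9%) were up in mLN, and of 78 up at least 4-fold, 78 were. Of 301 genes down at least 1.5-fold, 280 (93.0%) were down in mLN, but only 84 of these reached 1.5-fold there, against 325 of the 436 up. The agreement was present between single libraries too: the change from the WT mean in DKO library 1 of spleen and pLN correlated with that in the 3 mLN DKO libraries at r = 0.50, 0.77 and 0.74, and that in DKO library 2 at r = 0.62, 0.59 and 0.54. Libraries of one tissue share the WT mean they are set against.

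The count of calls depended on the fit in both tissues. In spleen and pLN it was 134 over all 16357 genes of that table, 1 (*Pcsk1*) when genes of low count were removed first or the 2 Foxp3- groups were fitted alone, and 363 with DESeq2. Leaving out WT library 1 or 2 gave 2 or 1 calls there. Leaving out DKO library 2 gave 2751, of which 1566 were up and 1185 down, a more even split. In mLN it was 575 over all 16784 genes, 2 with the 2 Foxp3- groups fitted alone, 57 to 110 without 1 of the WT libraries and 1453 without DKO library 1. Without both libraries that stood apart, 43 of the 96 shared genes were still called in both tissues, all 96 were still positive in both, and 89 had a log2 fold change over 1 in both. A robust fit, chosen after seeing the data, called 7 in both tissues, none of them among the 12 featured below; *Pcsk1* then had an adjusted p of 0.0285 in spleen and pLN and 0.0764 in mLN.

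The shared genes are described in the order of their known roles, an order chosen after their values were seen. Of the 96 genes, 94 had every DKO library above every WT library in both tissues, 41 were under 1 CPM in WT spleen and pLN and 54 in WT mLN, and 15 had 3 or fewer reads over all WT libraries in both. The 12 named first below had the largest smaller-of-2 log2 fold change among genes reaching 10 CPM in both tissues. Coordinates are on mm9.

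Among secretory genes, *Pcsk1* (chr13:75227274-75269946, plus strand) encodes a proprotein convertase that cleaves prohormones in secretory granules. In spleen and pLN it was 4.03 and 2.57 CPM in WT against 233 and 181 in DKO, a log2 fold change of 5.97 ± 0.37 (SE; adjusted p = 2.87e-05). In mLN it was 2.64, 3.31 and 2.79 CPM in WT against 38.7, 1627 and 71.6 in DKO, a log2 fold change of 7.62 ± 1.46 (adjusted p = 0.0153). All 5 DKO libraries were more than 10-fold above the highest WT library of their tissue, and without the 2 libraries that stood apart the log2 fold changes were 5.77 (adjusted p = 2.77e-06) and 4.23 (adjusted p = 0.00474). *Scg2* (chr1:79431244-79436665, minus strand), a granin of the same granules, was 0.38 and 0.804 CPM in WT against 72.3 and 9.85 in DKO spleen and pLN. In mLN *Scg2* was 0.426, 0.338 and 0.0997 CPM in WT against 7.45, 13.4 and 55.5 in DKO. Its log2 fold changes were 6.11 ± 0.85 (adjusted p = 0.0112) and 6.36 ± 0.85 (adjusted p = 0.00387), and it was highest in mLN in DKO library 3, not in the library that stood apart. Without that of spleen and pLN its log2 fold change there was 4.04. *Penk*, which encodes the opioid precursor proenkephalin and was picked after its values were seen, was 27.2 and 9.08 CPM in WT against 142 and 109.8 in DKO spleen and pLN. In mLN *Penk* was 9.02, 6.41 and 8.38 CPM in WT against 149.7, 42.2 and 68.9 in DKO. Its groups did not overlap in either tissue, and its highest mLN value was in DKO library 1, the DKO mLN library with the fewest changed genes.

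The 250 bases before the annotated start of *Pcsk1* and *Scg2*, and of *Areg* below, each hold the palindrome TGACGTCA, the letters of the cAMP response element (CRE), and are shown for that reason with the 8 letters in capitals. They are from RefSeq on GRCm38.p6, a later build than mm9, at chr13:75089607-75089856 (plus strand) for *Pcsk1*, chr1:79440027-79440276 (minus strand) for *Scg2* and chr5:91139349-91139598 (plus strand) for *Areg*.
Pcsk1: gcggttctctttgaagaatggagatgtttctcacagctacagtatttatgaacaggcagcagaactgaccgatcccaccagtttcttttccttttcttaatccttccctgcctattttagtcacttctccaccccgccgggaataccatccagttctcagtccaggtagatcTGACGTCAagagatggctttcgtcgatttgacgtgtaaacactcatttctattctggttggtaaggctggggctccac
Scg2: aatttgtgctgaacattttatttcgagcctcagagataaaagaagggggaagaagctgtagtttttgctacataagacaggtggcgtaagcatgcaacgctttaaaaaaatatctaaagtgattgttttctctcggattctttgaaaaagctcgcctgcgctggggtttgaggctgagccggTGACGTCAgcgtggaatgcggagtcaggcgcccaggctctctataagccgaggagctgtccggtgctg
Areg: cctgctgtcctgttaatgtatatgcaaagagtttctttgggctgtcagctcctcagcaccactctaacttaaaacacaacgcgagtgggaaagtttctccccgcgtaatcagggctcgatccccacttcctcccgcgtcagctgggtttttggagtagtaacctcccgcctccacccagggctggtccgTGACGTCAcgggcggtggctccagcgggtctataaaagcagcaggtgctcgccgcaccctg

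Of the 96 shared genes only 68 had such a sequence, too few to compare the set with other genes; 3 of the 68 held TGACGTCA, and over all paired genes it was found in 306 of 11870 (2.58%). The AP-1 letters TGANTCA were found in 6 of the 68 and in 544 of the 11870 (4.58%). Both strands were searched, the CRE letters do not match the AP-1 letters, and a match is a description of the sequence, not evidence that a factor binds there.

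Among adhesion and guidance genes, *Ntng1*, which encodes the axon guidance protein netrin G1, had no reads in WT spleen and pLN and 39.2 and 1.85 CPM in its DKO libraries, which is at least 175-fold higher than a floor of 3 reads over the WT group (adjusted p = 0.0411). In mLN it had 1 read over the 3 WT libraries and was 0.976, 18.9 and 13.7 CPM in DKO (adjusted p = 0.0181), so every DKO library lay above every WT library in both tissues. The spleen and pLN bound of *Ntng1* rested mainly on DKO library 1. Its call there was lost without that library, with a fitted log2 fold change, which is no bound, of 7.71 against 11.20 with it (adjusted p = 0.0994). In mLN the fitted value was 7.62 against 8.24. *Flrt2* (chr12:96930436-97023425, plus strand), a guidance receptor ligand, was 3.19 and 1.05 CPM in WT against 129 and 28.7 in DKO spleen and pLN. In mLN *Flrt2* was 1.45, 1.62 and 1.3 CPM in WT against 10.2, 371 and 19.1 in DKO. Its log2 fold changes were 5.21 ± 0.68 (adjusted p = 0.0106) and 6.50 ± 1.24 (adjusted p = 0.0153). They were 3.74 and 3.32 without the 2 libraries that stood apart, and *Flrt2* was still called in both tissues. *Shtn1*, which encodes shootin 1 of growing axons, was 4.1 and 1.85 CPM in WT against 248 and 24.2 in DKO spleen and pLN. In mLN *Shtn1* was 1.53, 1.28 and 0.898 CPM in WT against 18.8, 114 and 119.6 in DKO. The groups were apart in both tissues, with log2 fold changes of 5.50 ± 0.87 (adjusted p = 0.0173) and 6.06 ± 0.63 (adjusted p = 0.00134). The first was 3.01 without the library that stood apart. *Dsp* (chr13:38243197-38290446, plus strand), the desmosome plaque protein desmoplakin, was 0.532 and 0.322 CPM in WT against 55.6 and 3.41 in DKO spleen and pLN. In mLN *Dsp* was 1.11, 1.76 and 0.798 CPM in WT against 7.81, 39.1 and 86 in DKO. Its call in spleen and pLN (6.08 ± 1.17, adjusted p = 0.0401) was lost without the libraries that stood apart (2.96, adjusted p = 0.164), whereas that in mLN (5.12 ± 1.24, adjusted p = 0.038) gave 5.20 (adjusted p = 0.0379). *Nrn1*, neuritin, picked after its values were seen, was 42.2 and 30.4 CPM in WT against 679 and 161 in DKO spleen and pLN. In mLN *Nrn1* was 10.04, 8.71 and 6.28 CPM in WT against 104, 650.2 and 100.1 in DKO. Every DKO library held more than 3-fold the highest WT value of its tissue. The log2 fold changes of *Nrn1* went from 3.53 to 2.14 in spleen and pLN and from 5.09 to 3.61 in mLN without the libraries that stood apart.

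Of the remaining membrane and cytoplasmic genes, *Stom* (chr2:35169506-35192529, minus strand), the membrane scaffold stomatin, was 4.33 and 3.7 CPM in WT against 781 and 36.8 in DKO spleen and pLN. In mLN *Stom* was 3.57, 3.44 and 3.29 CPM in WT against 25, 285 and 192 in DKO. Its log2 fold changes were 6.67 ± 1.12 (adjusted p = 0.0241) and 5.602 ± 0.80 (adjusted p = 0.00454), and 3.19 and 4.98 without the 2 libraries that stood apart. *Sntg2* (chr12:30859347-31058240, minus strand), a syntrophin, had 1 WT read in spleen and pLN and 2 in mLN and was 49.3 and 3.33 CPM in DKO spleen and pLN and 2.13, 13.7 and 18 CPM in DKO mLN (adjusted p = 0.0173 and 0.00434). *Ica1l* (chr1:60045914-60099931, minus strand), related to the islet autoantigen *Ica1*, was 2.43 and 1.61 CPM in WT against 77.1 and 17.5 in DKO spleen and pLN, and 0.681, 1.55 and 0.997 in WT against 6.03, 188 and 24.5 in DKO mLN. Each of these 3 genes lay above every WT library in each DKO library of both tissues. Without the libraries that stood apart, *Sntg2* in spleen and pLN went from a fitted 9.11 to 6.12, and *Ica1l* from 4.54 to 3.10 there and from 6.03 to 3.77 in mLN, all still called. *Napsa* (chr7:51827802-51842232, plus strand), an aspartic protease of lung and kidney, was 0.987 and 0.804 CPM in WT against 23.8 and 6.96 in DKO spleen and pLN, and 0.511, 0.135 and 0.199 in WT against 4.17, 33.7 and 7.78 in DKO mLN. *Vat1l* (chr8:116729512-116897971, plus strand) was 4.33 and 2.81 CPM in WT against 237 and 12.4 in DKO spleen and pLN, and 0.426, 0.54 and 0.399 in WT against 1.6, 28.9 and 35.7 in DKO mLN. Both were called in both tissues, but *Vat1l* in spleen and pLN fell from 5.12 (adjusted p = 0.0438) to 1.79 (adjusted p = 0.112) without the libraries that stood apart. *Napsa* went from 4.09 to 2.94 in spleen and pLN and from 5.76 to 4.40 in mLN and was still called in both. Collagen genes were among the shared genes with no WT reads: *Col5a3* was 23.4 and 2.45 CPM in DKO spleen and pLN and 1.77, 8.94 and 10.9 CPM in DKO mLN, at least 110.1-fold and 87.7-fold higher. Stroma and endothelium markers (9 genes) moved with it in spleen and pLN, where they summed to 0.987 and 0.402 CPM in WT against 20.8 and 2.74 in DKO, 17.8 of the 20.8 being *Pdgfra*. *Col1a1*, *Col1a2* and *Col3a1* were under 1 CPM in every Foxp3- library, and the part of such cells in the *Col5a3* reads was not tested. The fitted value of *Col5a3* in spleen and pLN was 8.11 without the library that stood apart against 10.53 with it.

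Genes of secreted signaling proteins were also among the shared genes. *Spp1* (chr5:104864137-104870069, plus strand), osteopontin, was 20.4 and 18.7 CPM in WT against 957 and 40.1 in DKO spleen and pLN. In mLN *Spp1* was 1.36, 0.54 and 0.598 CPM in WT against 13.8, 93.7 and 35.6 in DKO. Its log2 fold change was 4.67 ± 0.96 (adjusted p = 0.049) in spleen and pLN and 5.84 ± 0.73 (adjusted p = 0.00324) in mLN, and DKO library 1 decided its size in spleen and pLN, where it was 1.03 (adjusted p = 0.0294) without it. In mLN it was 4.90 without DKO library 2. *Csf1* (chr3:107543966-107563387, minus strand), the macrophage growth factor M-CSF, was the only one of 21 T cell cytokine genes called in both tissues. It was 11.2 and 7.24 CPM in WT against 201 and 23.4 in DKO spleen and pLN. In mLN *Csf1* was 5.02, 7.09 and 4.99 CPM in WT against 10.9, 194 and 114 in DKO. The log2 fold changes of *Csf1* were 3.61 ± 0.73 (adjusted p = 0.0465) and 4.21 ± 0.71 (adjusted p = 0.00897), with 1.34 (adjusted p = 0.152) in spleen and pLN and 3.44 (adjusted p = 0.00604) in mLN without the libraries that stood apart. *Lif*, an interleukin-6 family cytokine picked after its values were seen, was 2.35 and 2.41 CPM in WT against 138 and 8.45 in DKO spleen and pLN, and 2.47, 3.58 and 4.69 in WT against 6.39, 31 and 20.3 in DKO mLN. In spleen and pLN its log2 fold change of 4.94 was 1.82 without DKO library 1. *Areg*, the epidermal growth factor receptor ligand amphiregulin, named for its upstream sequence, had 1 WT read in spleen and pLN and was 6.22 and 1.19 CPM in DKO, and was 0, 0.203 and 0.0997 CPM in WT against 0.177, 1.9 and 1.59 in DKO mLN, with overlap in mLN. Without the libraries that stood apart *Areg* was called in neither tissue (adjusted p = 0.0932 and 0.0923), with a log2 fold change in mLN of 2.92 against 3.41 with them.

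Among genes already expressed in WT cells, *Cybb* (chrX:9012378-9064897, minus strand), the catalytic subunit of the phagocyte NADPH oxidase, was 71.6 and 52.2 CPM in WT against 475 and 140.3 in DKO spleen and pLN. In mLN *Cybb* was 13.9, 22.1 and 17.1 CPM in WT against 58.5, 139 and 258 in DKO. Its log2 fold changes were 2.31 ± 0.42 (adjusted p = 0.02996) and 3.09 ± 0.44 (adjusted p = 0.00454); it was the only one of 19 myeloid markers called in either tissue, of which 18 were positive in spleen and pLN and 16 in mLN. Without DKO library 1 the *Cybb* change in spleen and pLN was 1.18 (adjusted p = 0.00867). *Cd38* (chr5:44260048-44303614, plus strand), an NAD-consuming ectoenzyme of activated lymphocytes, was 29.6 and 17.8 CPM in WT against 82.5 and 46.5 in DKO spleen and pLN. In mLN *Cd38* was 9.36, 9.05 and 10.5 CPM in WT against 19.5, 91.5 and 36.3 in DKO. The groups of both genes were apart in both tissues, and *Cd38* gave log2 fold changes of 1.44 ± 0.28 (adjusted p = 0.0423) and 2.36 ± 0.41 (adjusted p = 0.0104). Without the library that stood apart *Cd38* was not called in spleen and pLN (0.97, adjusted p = 0.152), and in mLN it was 1.55 (adjusted p = 0.0011).

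**Figure D2:**
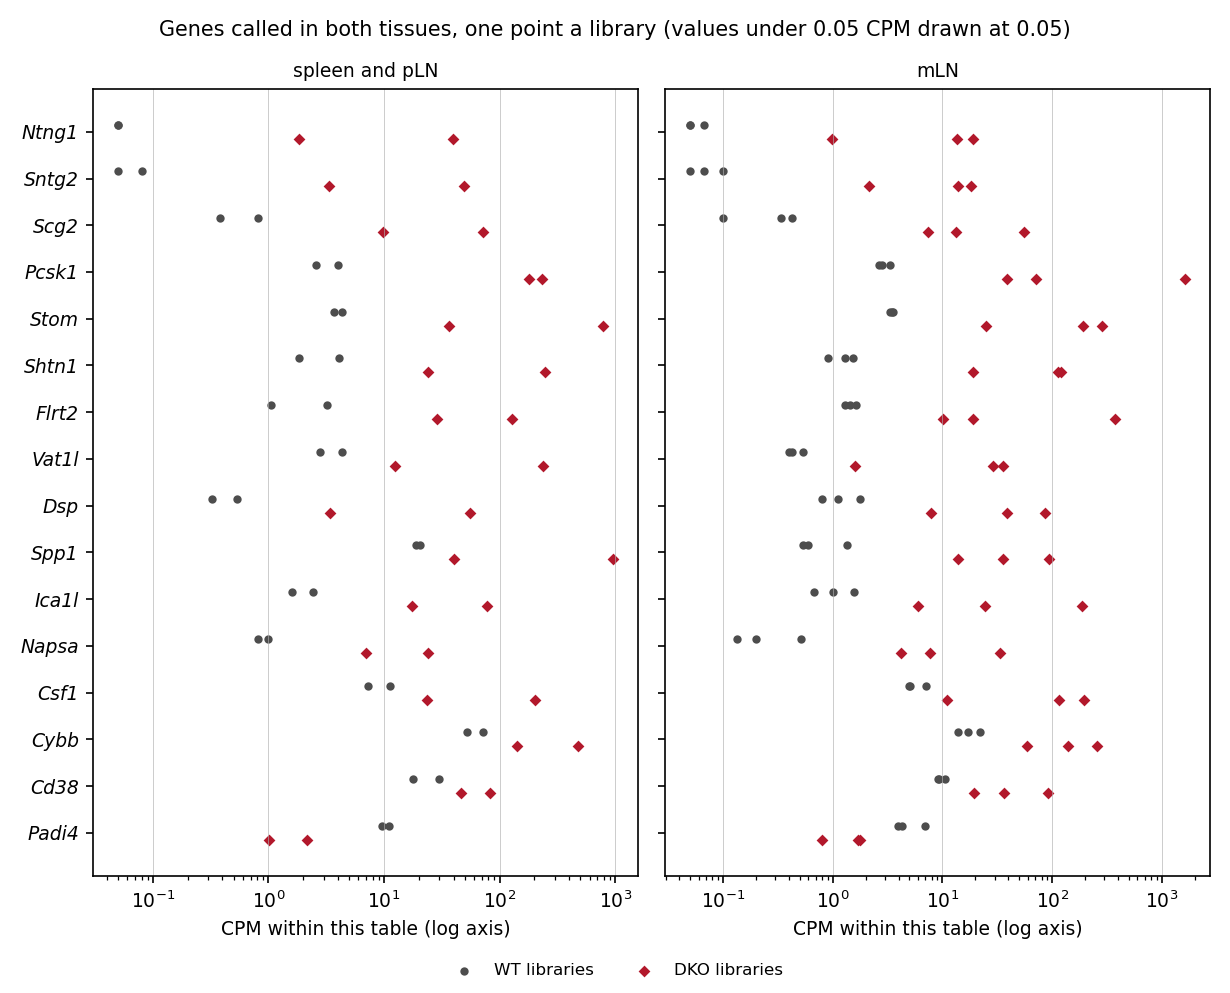
CPM (log axis, one scale for each table) of 16 genes called in both tissues, one point for each library, with WT libraries in grey and DKO libraries in red and values under 0.05 CPM drawn at 0.05. DKO points lie to the right of all WT points of the same tissue for the 15 genes called up and to the left for *Padi4*.

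Every DKO library took part in the shared increase, to unequal extents. The change of a shared gene in a library was taken as its log2(CPM + 1) minus the WT mean of that tissue. Over the 96 genes the median change was 2.93 in DKO library 1 and 1.30 in DKO library 2 of spleen and pLN, and 1.08, 3.24 and 1.80 in the 3 DKO libraries of mLN. The lowest change of any gene was above 0 in all 5, from 0.09 in DKO library 1 of mLN to 0.92 in DKO library 1 of spleen and pLN. The same libraries were highest for most of the genes. DKO library 1 of spleen and pLN was highest for 94 of the 96 genes, and DKO library 2 of mLN for 74, with DKO library 3 highest for 17 and DKO library 1 for 5. Between tissues, the log2 fold change was larger in mLN for 69 of the 96, and the difference between tissues had an unadjusted p under 0.05 for 1 of them, *Sdc2*. These 96 were picked for their values in these same libraries, so the figures of this paragraph describe them and test nothing.

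**Figure D3:**
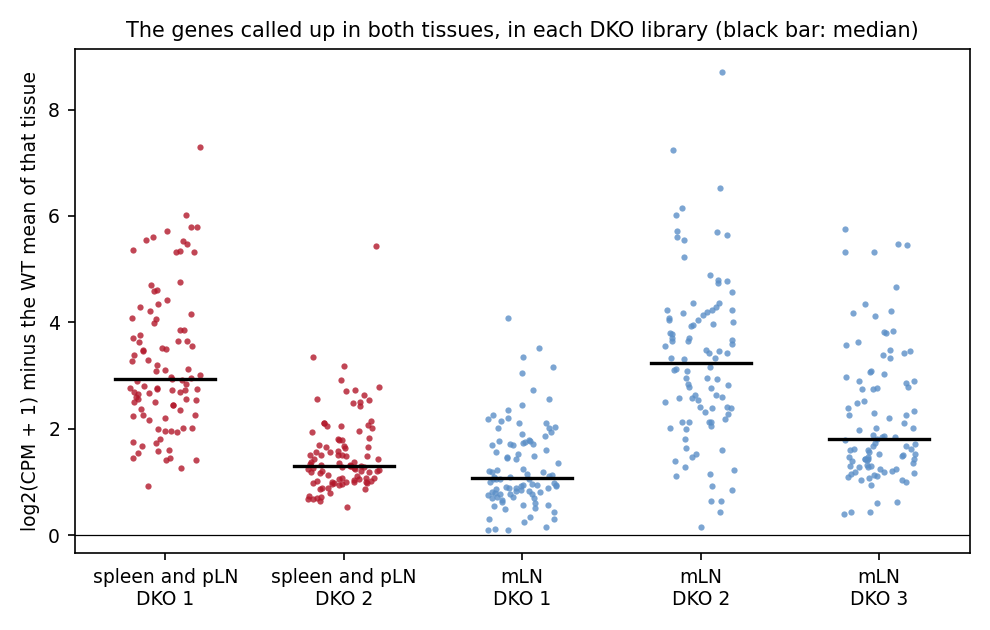
Change of log2(CPM + 1) from the WT mean of the same tissue (y axis) for the 96 genes called up in both tissues, one point for each gene in each of the 5 DKO libraries, with a black bar at the median. All points are above 0, and the medians run from 1.08 in DKO library 1 of mLN to 3.24 in DKO library 2 of mLN.

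Many of the shared genes had also risen in the Treg cells of the same source. Of the 96, 37 were called up in DKO Treg cells of spleen and pLN, where 1.22% of the paired genes were, and 72 in DKO Treg cells of mLN, where 9.26% were. In all, 34 were called in Treg cells of both tissues, 21 in neither, and none was called down. *Cybb*, *Cd38*, *Dsp*, *Fgl2*, *Twist1* and *Meis2* were among the 21. The mean CPM of DKO Foxp3- cells was above that of DKO Treg cells for 59 of the 96 in spleen and pLN and for 28 in mLN. Treg and Foxp3- libraries of one table share a spread estimate. For spleen and pLN the study describes both cell types as taken from the same DKO littermates, so the Treg calls there do not come from separate mice.

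Of the 2 genes called down in both tissues, *Padi4* is described here. *Padi4*, which encodes a peptidylarginine deiminase best known from neutrophils, was 10.9 and 9.57 CPM in WT against 1.005 and 2.15 in DKO spleen and pLN. In mLN *Padi4* was 3.92, 6.89 and 4.29 CPM in WT against 1.69, 1.76 and 0.795 in DKO; it is named because only 2 genes were down in both, after its values were seen. Its log2 fold changes were -2.71 ± 0.45 (adjusted p = 0.0241) and -1.82 ± 0.39 (adjusted p = 0.0231). *Padi4* was lower in each DKO library than in any WT library of the same tissue. Neutrophil markers summed to 28.8 to 56.2 CPM in WT against 21.5 to 30.1 in DKO spleen and pLN (12 genes) and to 1.62 to 3.11 against 1.33 to 13.4 in mLN (3 genes in that table), and the part of such cells in the *Padi4* change was not tested. Without the libraries that stood apart it was still called in both (-2.25, adjusted p = 0.0217, and -2.01, adjusted p = 0.0198).

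Genes of known T cell programs were next compared list by list. Among all 15183 paired genes, 3.41% were called up in mLN and 0.830% in spleen and pLN. A positive log2 fold change was found for 7469 of them in spleen and pLN and for 7586 in mLN. All 27 genes of G2 and mitosis were positive in both tissues, with median log2 fold changes of 1.001 in spleen and pLN and 0.84 in mLN against medians of 0 over all paired genes, and 12 were called up in mLN and none in spleen and pLN. *Mki67*, a marker of cycling cells, was 2.05 and 2.33 CPM in WT against 7.22 and 2.96 in DKO spleen and pLN, and 7.49, 9.79 and 8.58 in WT against 17.8, 17.2 and 29.6 in DKO mLN. *Ccnb1*, the mitotic cyclin B1, was 6.53 and 6.67 CPM in WT against 16.8 and 9.19 in DKO spleen and pLN, and 4.68, 5.06 and 4.89 in WT against 11, 11.5 and 14.4 in DKO mLN. DKO libraries were above WT libraries for both genes in both tissues, with calls in mLN alone (1.31 ± 0.25, adjusted p = 0.0152, and 1.33 ± 0.24, adjusted p = 0.0121). Without the libraries that stood apart, all 27 were still positive in both tissues and 9 were called in mLN. Of 24 S phase genes, 24 were positive in spleen and pLN and 20 in mLN, with medians of 0.62 and 0.31, and 6 were called up in mLN, *Mcm6*, *Rrm2* and *Dtl* among them, against 5 without the library that stood apart. Of 7 CDK inhibitor genes, *Cdkn1a* and *Cdkn2c* were called up in mLN and none in spleen and pLN, and *Cdkn2c* was lost without the library that stood apart (0.92, adjusted p = 0.057).

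Of 22 Tfh genes, 7 were called up in mLN (*Pdcd1*, *Il21*, *Icos*, *Maf*, *Sh2d1a*, *Cd200* and *Tnfsf8*) and none in spleen and pLN, with median log2 fold changes of 1.01 in mLN and 0.46 in spleen and pLN. Over all paired genes 3.41% were called up in mLN and 0.830% in spleen and pLN. Of 14 co-inhibitory receptor genes, 6 were called up in mLN (*Pdcd1*, *Ctla4*, *Lag3*, *Tigit*, *Pdcd1lg2* and *Nt5e*) and none in spleen and pLN, with medians of 1.32 in mLN and 0.90 in spleen and pLN. No difference between the tissues is shown by these counts: the difference itself had an unadjusted p under 0.05 for 1 of the 22 Tfh genes (*Sh2d1a*, unadjusted p = 0.0458) and for none of the 14 co-inhibitory genes, and no adjusted p was below 0.999876. *Pdcd1*, which encodes PD-1, was 43.1, 50.9 and 37.5 CPM in WT against 67.2, 205 and 131 in DKO mLN (1.62 ± 0.29, adjusted p = 0.0112). In spleen and pLN it was 172 and 120.2 CPM in WT against 404 and 124 in DKO, so DKO library 2 lay within the WT range. *Icos*, a costimulatory receptor needed by Tfh cells, was 212 and 188 CPM in WT against 1236 and 262 in DKO spleen and pLN, and 101, 117 and 120.4 in WT against 173, 853 and 364 in DKO mLN. *Lag3*, an inhibitory receptor for MHC class II, was 124 and 111 CPM in WT against 896 and 149 in DKO spleen and pLN, and 50.6, 73.3 and 49.3 in WT against 97.9, 642 and 300.3 in DKO mLN. DKO exceeded WT in all libraries of both tissues for *Icos* and *Lag3*, with calls in mLN (2.04 ± 0.39, adjusted p = 0.0153, and 2.58 ± 0.53, adjusted p = 0.0194) that gave 1.26 and 1.79 without the library that stood apart. *Bcl6*, the Tfh lineage factor, was 42.5 and 35.5 CPM in WT against 126 and 30.7 in DKO spleen and pLN, and 36.1, 37.3 and 35.2 in WT against 37.3, 67.8 and 79.2 in DKO mLN. *Cxcr5*, the follicle homing receptor, was 217 and 151 CPM in WT against 301 and 105 in DKO spleen and pLN, and 57.1, 71.2 and 52.2 in WT against 60.1, 193 and 108 in DKO mLN. With edgeR neither was called in either tissue (adjusted p = 0.0742 and 0.0946 in mLN). DESeq2 called both in mLN (0.77, adjusted p = 0.0215, and 1.01, adjusted p = 0.0225), as did edgeR without DKO library 1 of mLN (1.02, adjusted p = 0.000678, and 1.32, adjusted p = 0.00182). Both were lower in DKO library 2 of spleen and pLN than in its WT libraries. Without the libraries that stood apart, 4 Tfh and 4 co-inhibitory genes were called in mLN. In spleen and pLN the Tfh genes with a positive change then went from 15 to 9 and the co-inhibitory genes from 11 to 9, and the *Pdcd1* log2 fold change in spleen and pLN was -0.24.

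*Il21*, the cytokine of Tfh cells, was 44.6 and 40.2 CPM in WT against 234 and 52.4 in DKO spleen and pLN. In mLN *Il21* was 12.3, 18.9 and 11.4 CPM in WT against 18.8, 139 and 101 in DKO, where it was called (2.60 ± 0.59, adjusted p = 0.0308). *Maf*, a transcription factor that drives *Il21*, was 69 and 51.1 CPM in WT against 270.1 and 62.9 in DKO spleen and pLN, and 45.4, 68 and 51.3 in WT against 62.6, 266 and 153 in DKO mLN (called in mLN, 1.55 ± 0.39, adjusted p = 0.0451). Neither was called in mLN without the library that stood apart, with log2 fold changes of 2.07 (adjusted p = 0.054) and 0.97 (adjusted p = 0.117).

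Of 14 Th17 genes, 12 were positive in spleen and pLN and 13 in mLN, with medians of 1.44 and 0.71, but only *Irf4* in mLN was called, and not without the library that stood apart (0.70, adjusted p = 0.0967). *Il17f* was 0.304 and 0.0804 CPM in WT against 2.26 and 0.222 in DKO spleen and pLN, and 0.851, 0.54 and 1.3 in WT against 6.56, 0.915 and 1.77 in DKO mLN (adjusted p = 0.398 and 0.25). DKO and WT libraries overlapped for *Il17f* in both tissues. *Il17a* had no reads in WT spleen and pLN and was 6.65 and 0.148 CPM in its DKO libraries, which is at least 29-fold higher but with 1 library giving nearly all of it (adjusted p = 0.118), and was 1.96, 0.945 and 2.59 CPM in WT against 0.887, 0.493 and 0.354 in DKO mLN (adjusted p = 0.221). In mLN, where neither cytokine passed the test, *Il17a* in every DKO library lay below every WT library.

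Of 20 activation and memory genes, *Cd38* was called in both tissues and 7 more in mLN (*Tnfrsf4*, *S100a4*, *S100a6*, *Lgals1*, *Lgals3*, *Anxa2* and *Ahnak*), with medians of 0.44 in spleen and pLN and 0.85 in mLN; without the libraries that stood apart 6 were called in mLN and none in spleen and pLN. *Tnfrsf4*, the costimulatory receptor OX40, was 67.9 and 61.8 CPM in WT against 428 and 102 in DKO spleen and pLN, and 25.8, 27.5 and 26.4 in WT against 48, 170.2 and 98 in DKO mLN (1.99 ± 0.33, adjusted p = 0.00877). Of 22 genes of naive and resting cells, none was positive in spleen and pLN and 2 were in mLN (medians -0.61 and -0.31), and the only call was *Ccr9*, a gut homing receptor, down in mLN (-1.49 ± 0.38, adjusted p = 0.0486) but not without the library that stood apart (-1.10, adjusted p = 0.072). Of 16 Th1 genes 1 was called up, in mLN (*Nkg7*, a cytotoxic granule protein), and of 20 cytotoxic genes 2 (*Nkg7* and *Serpina3g*). Without the libraries that stood apart the counts rose, to 2 Th1 genes in mLN (*Il18rap* added) and to 5 cytotoxic genes in mLN (*Ccl3*, *Ccl4* and *Klrd1* added) and 1 in spleen and pLN (*Gzmc*). The summed NK cell markers given above, mostly *Klrb1c* in mLN, were also higher in DKO mLN, and the part of NK cells in these calls was not tested. *Gzmb*, granzyme B, was 5.47 and 5.63 CPM in WT against 6.59 and 9.78 in DKO spleen and pLN, and 1.79, 0.743 and 1.2 in WT against 1.33, 4.93 and 4.07 in DKO mLN, and edgeR called it in neither. Of 38 interferon-stimulated genes 1 was called (*Ifi27l2a*, up in mLN), with medians of -0.35 and -0.07. For comparison, 3.41% of all paired genes were called up and 0.329% down in mLN, and 0.830% were called up in spleen and pLN. The 1 call among 38 genes is near the mLN share of up calls, and 1 of 16 and 2 of 20 are small counts.

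**Figure D4:**
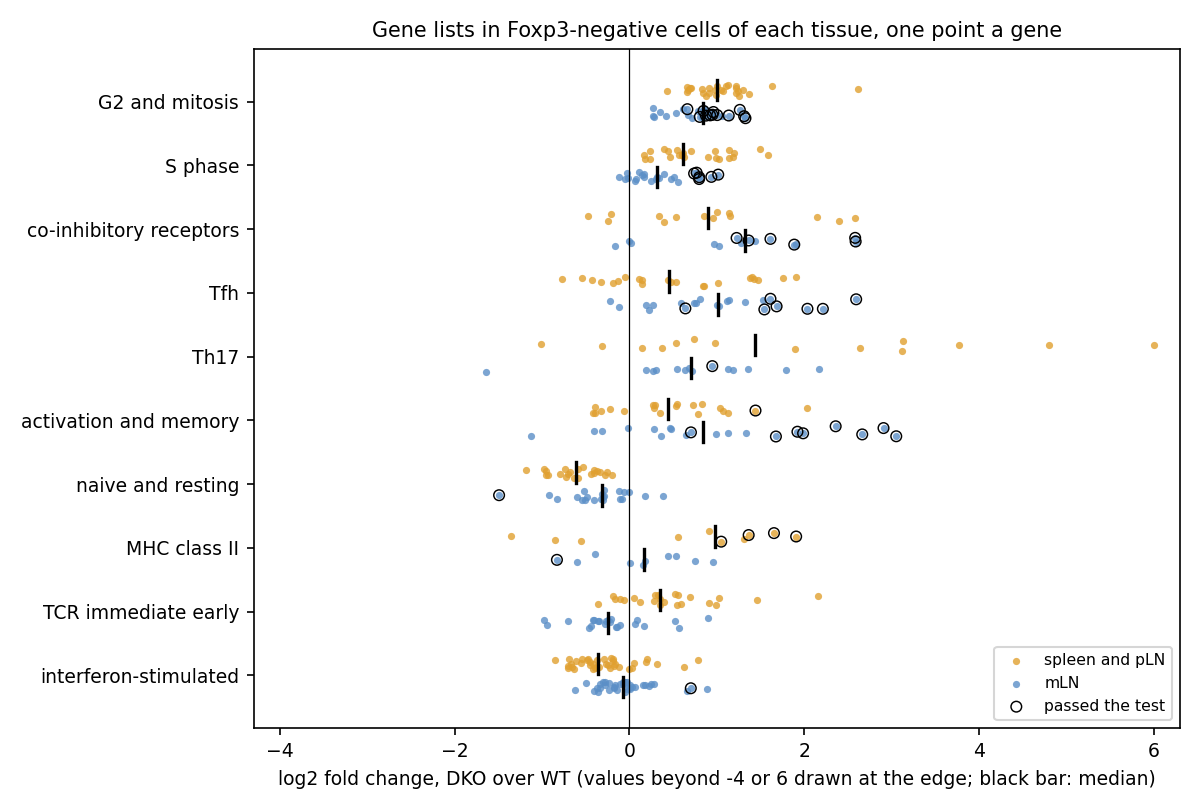
Log2 fold change of DKO over WT (x axis) for the genes of 10 lists, one point for each gene, spleen and pLN in orange above mLN in blue, with circles around genes that passed the test and a black bar at each median. Cell division genes lie to the right of 0 in both tissues apart from a few S phase genes in mLN, naive and resting genes lie mostly to its left, and the MHC class II and T cell receptor (TCR) immediate early lists lie further to the right in spleen and pLN than in mLN.

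No gene passed a test of the difference between the tissues. The DKO effect in mLN minus that in spleen and pLN was fitted with edgeR's quasi-likelihood test in a model of the Foxp3- libraries of both tables, and of 15058 genes tested none had an adjusted p of 0.05 or less, the smallest being 0.999876, with 446 (2.96%) at an unadjusted p under 0.05; DESeq2 called 6 (*Dck*, *Ier2*, *Junb*, *Jund*, *Klhl24* and *Slc7a5*). All DKO libraries lay above WT in one tissue and below it in the other for 180 genes (1.19%), 109 of them up in spleen and pLN. The genes described next are therefore those with unlike values, and edgeR called a tissue difference for none of them. Their p for the difference is unadjusted throughout.

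MHC class II genes present antigen to CD4+ T cells and are mainly products of B cells and myeloid cells. Of 10, 7 were positive and 3 negative in spleen and pLN, 2 of the latter with every DKO library below every WT library. The same 7 and 3 were so in mLN, with no gene of opposite sign. The difference between the tissues had an unadjusted p under 0.05 for 2 of the 10, *H2-Aa* (unadjusted p = 0.0141) and *H2-Eb1*. *H2-Aa*, *H2-Ab1*, *H2-Eb1* and the invariant chain *Cd74* were called up there, with no gene called up and *H2-DMa* called down in mLN, and medians of 0.98 in spleen and pLN and 0.17 in mLN. *H2-Eb1* (chr17:34442828-34453144, plus strand) was 8.43 and 7.32 CPM in WT against 21 and 28.7 in DKO spleen and pLN (1.66 ± 0.26, adjusted p = 0.0173). In mLN it was 5.87, 3.44 and 5.09 CPM in WT against 4.44, 6.47 and 4.95 in DKO (0.15 ± 0.30, adjusted p = 0.846), with overlapping groups and a difference of -1.52 ± 0.37 (unadjusted p = 0.00233). *H2-Aa* (chr17:34406276-34424772, minus strand) was 15.3 and 13.1 CPM in WT against 33.1 and 40.3 in DKO spleen and pLN (1.37 ± 0.21, adjusted p = 0.0166), and 10.1, 4.46 and 6.18 in WT against 6.83, 8.58 and 8.04 in DKO mLN (0.18 ± 0.33, adjusted p = 0.824). *H2-Ab1* (chr17:34400154-34406363, plus strand) was 9.65 and 5.87 CPM in WT against 27.4 and 31 in DKO spleen and pLN (1.91 ± 0.27, adjusted p = 0.0117), and 6.98, 2.43 and 3.59 in WT against 4.44, 14.8 and 5.57 in DKO mLN (0.96 ± 0.51, adjusted p = 0.341). *Cd74* was 37.8 and 29.6 CPM in WT against 65 and 74.6 in DKO spleen and pLN (1.05 ± 0.22, adjusted p = 0.048), and 30.6, 18.9 and 26.1 in WT against 32.7, 63.8 and 30.3 in DKO mLN (0.76 ± 0.37, adjusted p = 0.293). These 4 genes were higher in the DKO library of spleen and pLN that did not stand apart, library 2, and were still called without the one that did. In spleen and pLN 18 of 19 myeloid markers and 11 of 13 B cell markers were also positive. Their sums were higher in DKO library 1 (750 and 56.8 CPM) than in DKO library 2 (529 and 42.5), unlike the 4 class II genes. Among these markers *Itgax* was 1.14 and 1.05 CPM in WT against 3.39 and 6.37 in DKO, and *Tyrobp* 0.987 and 2.17 against 6.65 and 6.52. *Cd79a* was 0.76 and 1.13 against 1.57 and 1.41, and *Itgax*, *Tyrobp* and *Cd79a* were not called. Whether such cells contributed the class II reads was not tested.

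Of 23 immediate early genes of TCR signaling, 12 had opposite signs in the tissues and 11 the same sign. In all, 18 were positive in spleen and pLN and 6 in mLN, with medians of 0.36 and -0.24; none was called in either tissue, and 8 had an unadjusted p under 0.05 for the difference. *Junb* (chr8:87500811-87502617, minus strand), an AP-1 subunit, was 270.4 and 293 CPM in WT against 574 and 484 in DKO spleen and pLN (0.91 ± 0.20, adjusted p = 0.0652). In mLN it was 1009, 1034 and 859 CPM in WT against 739.96, 571 and 947 in DKO (-0.36 ± 0.19, adjusted p = 0.341), and the difference was -1.29 ± 0.28 (unadjusted p = 0.00093). *Ier2* (chr8:87185230-87186751, minus strand), a nuclear immediate early protein, was 88.9 and 96.6 CPM in WT against 144 and 129 in DKO spleen and pLN, and 172, 178 and 166 in WT against 149, 124 and 152 in DKO mLN (difference -0.85 ± 0.16, unadjusted p = 0.000366). For *Ier2* every DKO library was above WT in spleen and pLN and below WT in mLN, whereas *Junb* overlapped in mLN.

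**Figure D5:**
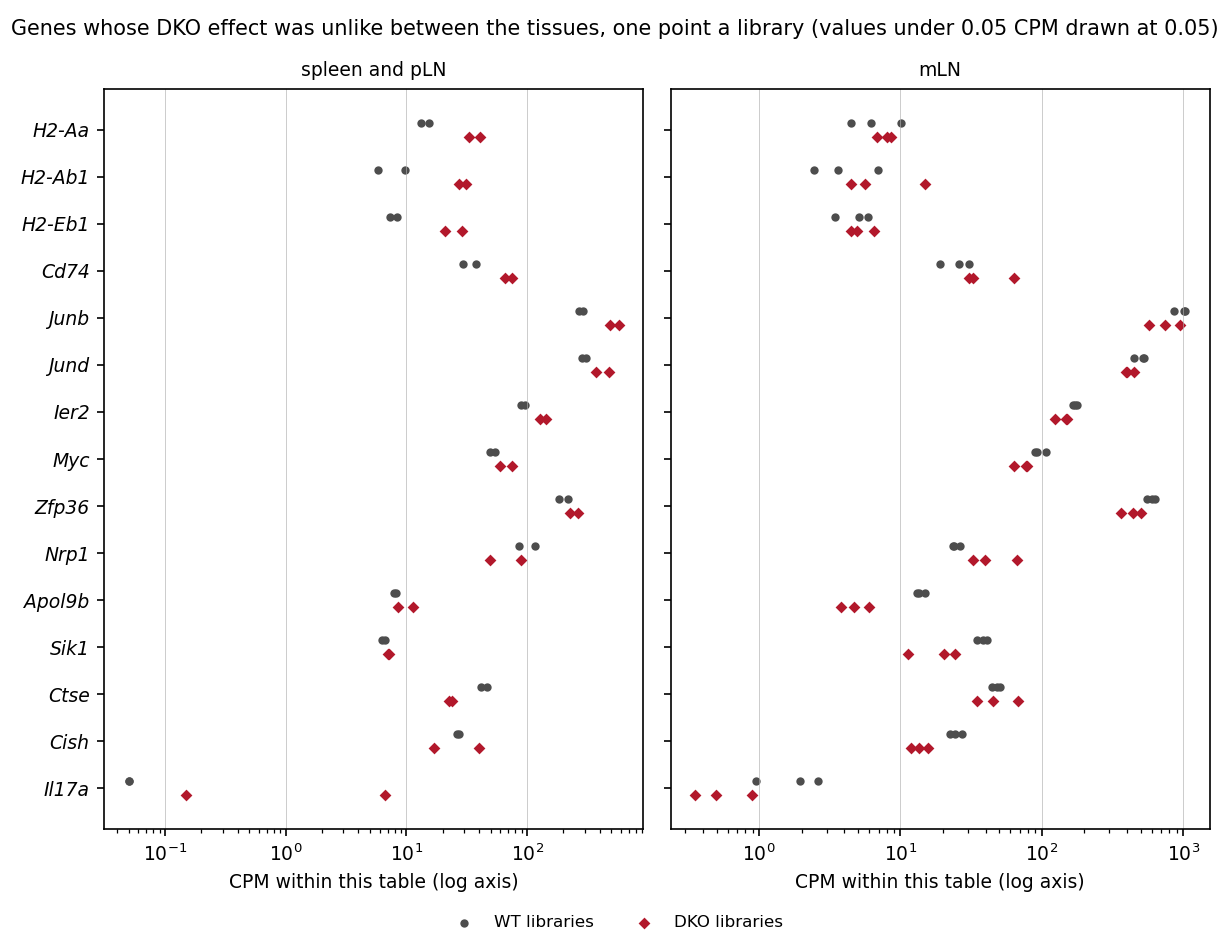
CPM (log axis, one scale for each table) of 15 genes whose DKO effect was unlike between the tissues, one point for each library, with WT in grey and DKO in red and values under 0.05 CPM drawn at 0.05. DKO points lie right of WT points in spleen and pLN for the class II and immediate early genes, while in mLN they overlap WT (*H2-Aa*, *H2-Eb1*, *Junb*) or lie to its left (*Ier2*, *Jund*, *Zfp36*).

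Single genes called in 1 tissue with the opposite sign in the other were *Nrp1*, *Itga4*, *Apol9b*, *Sik1*, *Cish* and *Ctse* by the rule used for naming. *Nrp1* (chr8:130882973-131029362, plus strand), a semaphorin coreceptor and Treg cell marker, was 117 and 85 CPM in WT against 49 and 88.8 in DKO spleen and pLN (-0.55 ± 0.27, adjusted p = 0.421). In mLN it was 23.9, 26.3 and 23.4 CPM in WT against 32.6, 66.6 and 39.9 in DKO (0.92 ± 0.20, adjusted p = 0.0234), with the groups apart in mLN alone and a difference of 1.46 ± 0.44 (unadjusted p = 0.00772). *Itga4* (chr2:79095583-79173280, plus strand), the α4 integrin of lymphocyte homing, was 428 and 394 CPM in WT against 332 and 448 in DKO spleen and pLN, and 495, 566 and 481 in WT against 719, 1037 and 671 in DKO mLN (0.65 ± 0.16, adjusted p = 0.0361). Its DKO libraries fell on both sides of WT in spleen and pLN. *Apol9b* (chr15:77559502-77566811, plus strand), an apolipoprotein L gene with a near-identical copy, *Apol9a*, that can share its reads, was 7.9 and 8.2 CPM in WT against 8.54 and 11.3 in DKO spleen and pLN, and 15, 13.2 and 13.5 in WT against 6.03, 3.8 and 4.68 in DKO mLN (-1.53 ± 0.31, adjusted p = 0.0194). *Sik1* (chr17:31981193-31992737, minus strand), a kinase induced by cAMP, was 6.3 and 6.59 CPM in WT against 7.03 and 7.11 in DKO spleen and pLN, and 38.6, 40.9 and 35 in WT against 20.3, 11.3 and 24.5 in DKO mLN (-1.04 ± 0.25, adjusted p = 0.0398). Both were below WT in every DKO mLN library and slightly above WT in every DKO spleen and pLN library. *Cish* (chr9:107198357-107205115, plus strand), an inhibitor of cytokine receptor signaling, was 27.5 and 26 CPM in WT against 16.9 and 40.2 in DKO spleen and pLN, and 22.4, 24.4 and 27.4 in WT against 13.5, 11.8 and 15.6 in DKO mLN (-0.86 ± 0.20, adjusted p = 0.0361). *Ctse* (chr1:133534883-133572080, plus strand), cathepsin E, was called in spleen and pLN, at 46.5 and 41.7 CPM in WT against 22.5 and 23.9 in DKO (-0.93 ± 0.17, adjusted p = 0.0302), and was 44.6, 50.3 and 47.9 CPM in WT against 34.8, 67.3 and 45.3 in DKO mLN. The sign outside the calling tissue rested on a single DKO library for *Itga4*, *Cish* and *Ctse*: without DKO library 1 of spleen and pLN *Itga4* was 0.12 there, without DKO library 2 *Cish* was -0.66, and without DKO library 2 of mLN *Ctse* was -0.24. Without both libraries that stood apart, *Apol9b* alone of the 6 was still called. *Nrp1* then fell under the fold limit in mLN (0.57, adjusted p = 0.0104), and *Itga4* (0.45, adjusted p = 0.0613), *Sik1* (-0.76, adjusted p = 0.0584) and *Cish* (-0.75, adjusted p = 0.106) in mLN and *Ctse* (-0.89, adjusted p = 0.078) in spleen and pLN passed the adjusted p no longer.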

How the data were processed

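RNA-seq was performed on CD4+Foxp3+ and CD4+Foxp3- T cells sorted from 20 samples, of which the 10 Foxp3- libraries were analysed here. The authors deposited raw read counts per gene in 1 table for spleen with pLN and 1 for mLN, made from 50 bp reads mapped to mm9 with TopHat2 2.1.1 and counted with featureCounts (Subread 1.4.3-p1) after bcl2fastq 2.20.0.442, per the submitters' processing notes. Tables of 16740 and 16784 genes were paired by symbol (14378 the same, 984 by an older symbol). DKO and WT were compared within each table, Treg groups in the fit, with edgeR 4.0.16's quasi-likelihood test (TMM scaling, genes with at least 1 read, R 4.3.3, limma 3.58.1), calling genes at a Benjamini-Hochberg adjusted p up to 0.05 with a change of 1.5-fold or more. CPM use TMM-scaled totals. The DKO effects were set against each other in 1 fit of both tables' Foxp3- libraries with tissue and genotype by tissue terms. Scripts were tested on simulated data. DESeq2 1.42.0 was an alternative, with other scalings, filters, samples and a replicate block.

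Named genes were first up to 12 called in both tissues in each direction with the largest smaller change. They had 10 CPM or more in both tissues and no overlap. Next came genes called in 1 tissue with the opposite sign in the other, up to 4 up and 4 down with the largest change over both tissues together. For these, 10 CPM and no overlap were asked of the calling tissue only. Genes of the lists were named as well. Some genes that the rule names are not reported here. The genes and lists were chosen with earlier results of these data known. The study describes its replicates as biological. Replicate spread behind the fits, as biological coefficient of variation, was 21.6% in spleen and pLN and 17.7% in mLN. Floors of 3 reads and counting cover counting error only. Gene positions are from GENCODE on mm9 and upstream sequences from RefSeq on GRCm38.p6.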

Additional observations from a re-analysis of the deposited data

Results flagged for a closer look

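In 9 named genes, every DKO library lay on one side of every WT library in spleen and pLN and on the other side in mLN. The values here are the log2 fold change in mLN minus that in spleen and pLN, with edgeR's unadjusted quasi-likelihood p. By that test the adjusted p of each was 0.999876 or more, so none passed it, whereas DESeq2 called *Ier2* and *Jund* for the difference. Libraries were placed this way for 180 of all 15183 paired genes.

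Of the immediate early genes, *Ier2* differed by -0.85 (unadjusted p = 0.000366), *Jund* by -0.81 (unadjusted p = 0.00167), *Myc* by -0.81 (unadjusted p = 0.00254) and *Zfp36* by -0.76 (unadjusted p = 0.00474), each higher in DKO in spleen and pLN and lower in DKO in mLN. *Apol9b* differed by -1.84 (unadjusted p = 0.000172) and *Sik1* by -1.18 (unadjusted p = 0.0111) in the same sense. *Il17a* differed by -10.13 (unadjusted p = 0.00272), a fitted value that is no bound because WT spleen and pLN had no reads of it.

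The other 2 were lower in DKO in spleen and pLN and higher in DKO in mLN. *Itgb1*, the β1 integrin, differed by 0.86 (unadjusted p = 0.00704), and *Cdkn1b*, the CDK inhibitor p27, by 0.65 (unadjusted p = 0.0106).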

How the results depend on the processing

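With all libraries, 134 genes were called in spleen and pLN, 575 in mLN and 98 in both in the same direction, and 98.5% of spleen and pLN calls and 97.9% of mLN calls had the same sign in the other tissue. With genes of low count removed by filterByExpr, 1 gene was called in spleen and pLN and in both, at 100% the same sign. With the 2 Foxp3- groups alone the counts were 1 in spleen and pLN, 2 in mLN and 0 in both, at 100% and 100%. DESeq2 called 363, 924 and 277, and 6 genes for the difference between tissues. With no fold change minimum 96.2% of mLN calls had the same sign. Of 3 choices made after seeing the data, pairing by the same symbol only gave 93 in both, a robust fit gave 19, 323 and 7 calls, with 100% of spleen and pLN calls at the same sign and none of the 12 featured genes among the 7 (*Cadm1*, *Epha3*, *Naip5*, *Ocln*, *Pls3*, *Ralyl* and *Sspo*), and leaving out both libraries that stood apart gave 83 in spleen and pLN and 53 in both, with 92.2% of mLN calls at the same sign. The cause of these shifts was not tested.

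Leaving out each library in turn gave 1 to 2751 calls in spleen and pLN, 57 to 1453 in mLN and 1 to 479 in both, 0 to 1 in opposite directions (*Nrp1*), 0 to 22 for the difference between tissues, and 92.1% to 100% and 90.5% to 100% at the same sign. Without DKO library 2 of spleen and pLN the counts were 2751 there (1566 up and 1185 down), 479 in both and 22 for the difference; without DKO library 1 they were 83 and 54. Without a WT library of spleen and pLN 2 or 1 were called there, and 2 or 1 in both; without a WT library of mLN 69, 57 and 110 were called in mLN and 22, 17 and 32 in both. Where 1 library was left in a group, it was assumed to vary like the other groups.

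Signs turned over these omissions in spleen and pLN for *Itga4* (-0.31 to 0.12), *Cish* (-0.66 to 0.58), *Pdcd1* (-0.24 to 1.47), *Bcl6* (-0.35 to 1.70) and *Cxcr5* (-0.81 to 0.71, and -0.095 without WT library 2), and in mLN for *Ctse* (-0.24 to 0.25); none was called in that tissue with all libraries. Over 56 pairs of a named gene and a tissue, under the settings of scaling, filter, tool, block, groups, robust fit and single libraries left out, 423 values kept direction and call, 169 lost a call, 15 gained one and 7 changed sign. Among those gained, *Pdcd1*, *Bcl6*, *Maf*, *Il21*, *Il17a*, *Il17f* and *Nrp1* were called in spleen and pLN without its DKO library 2, *Gzmb* in mLN without its DKO library 1, and *Bcl6* and *Cxcr5* in mLN without that library and with DESeq2.

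Replicate numbers were not taken to pair the libraries, since the labels do not tie them to a mouse or batch and 1 of the 3 mLN pairs was under 0.1: deviations of same-numbered libraries correlated at 0.297 in spleen and pLN and at 0.235, 0.122 and 0.0334 in mLN, where 5 of 6 libraries correlated best with their own number. A replicate block gave 98 calls in spleen and pLN, 563 in mLN, 67 in both and 0 for the difference; of the named genes *Stom* (adjusted p = 0.0695), *Vat1l* (adjusted p = 0.0762) and *Spp1* (adjusted p = 0.14988) in spleen and pLN and *Dsp* (adjusted p = 0.0604), *Sik1* (adjusted p = 0.0557), *Maf* (adjusted p = 0.0693) and *Il21* (adjusted p = 0.0579) in mLN were not called by edgeR with it. With 2 libraries a group, a change of one library, or of low reads, cannot be resolved further.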

Other observations

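Of 15 Treg lineage genes, *Ikzf2*, *Ctla4*, *Nrp1* and *Capg* were called up in mLN. Beside this and the lists below, 3.41% of all paired genes were called up and 0.329% down in mLN. In spleen and pLN the shares were 0.830% up and 0.0527% down. *Ikzf2*, which encodes Helios, was 27.4, 29.03 and 22.5 CPM in WT mLN against 36.6, 64.9 and 48.8 in DKO (log2 fold change 0.93 ± 0.18, adjusted p = 0.0160 by edgeR's quasi-likelihood test). In spleen and pLN *Ikzf2* was 69.05 and 57.6 CPM in WT against 178 and 45.4 in DKO, so its DKO libraries lay on both sides of WT. *Lrrc32*, the latent TGF-β receptor GARP, was the only gene of the list called in spleen and pLN, down from 0.304 and 0.563 CPM to no reads (adjusted p = 0.0295), and not called without the library that stood apart (adjusted p = 0.198). Of 18 chemokine receptor genes, *Ccr4* was called up and *Ccr9* and *Xcr1* down in mLN, and none in spleen and pLN; without the library that stood apart *Ccr9* (-1.10, adjusted p = 0.072) and *Xcr1* (-1.45, adjusted p = 0.112) were not called. *Ccr4*, also on the list of 10 Th2 genes with *Il9r* (down in mLN), was 24.9, 39.2 and 33.2 CPM in WT mLN against 40.6, 153 and 66.5 in DKO (1.42, and 0.73 without the library that stood apart).

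Of 21 glycolysis genes, *Hk2*, *Tpi1* and *Pgam1* were called up in mLN and none in spleen and pLN, with every DKO library above every WT library in both tissues for each. Libraries lay this way in both tissues for 5 of the 21 and for 7.19% of all paired genes, of which 3.41% were called up in mLN. *Hk2*, *Tpi1* and *Pgam1* were not called without the library that stood apart, where *Hk2* was 1.10 (adjusted p = 0.0611), *Tpi1* 0.89 (adjusted p = 0.0503) and *Pgam1* 0.51 (adjusted p = 0.0716). *Tpi1*, triosephosphate isomerase, was 87.9 and 76.7 CPM in WT against 359 and 103 in DKO spleen and pLN, and 77.1, 73.0 and 71.0 in WT against 89.1, 247 and 183 in DKO mLN. *Tgfb3*, a T cell cytokine gene, was called up in mLN alone, at 1.53, 2.43 and 2.69 CPM in WT against 6.56, 21.9 and 9.72 in DKO (2.52, and 1.88 without the library that stood apart). Of the 6 TET and DNMT genes none was called in either tissue. Transcripts of other cell types were called too. *Jchain*, of antibody-secreting cells, was 2.81 and 2.73 CPM in WT against 119 and 23.6 in DKO spleen and pLN (4.68 ± 0.85, adjusted p = 0.0302, and without the library that stood apart 3.08, adjusted p = 0.0619). *Cd8b1*, of CD8 T cells, fell from 22.9, 21.2 and 22.4 CPM in WT to 9.40, 4.996 and 9.63 in DKO mLN (-1.48 ± 0.22, adjusted p = 0.00490). *Klrb1c*, of NK cells, rose in mLN from 6.21, 12.6 and 7.48 CPM to 29.9, 135 and 61.8 (3.09 ± 0.48, adjusted p = 0.00710, and 2.36 without the library that stood apart).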
